A study of Homo sapiens with 14 samples.

Results

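The transcript levels of 10 genes encoding transcription factors that mark pancreatic progenitors were described across the path from human pluripotent stem cells to pancreatic β-like cells. The genes were PDX1, NKX6-1, NKX6-2, MNX1, SOX9, PTF1A, GLIS3, PROX1, HHEX and NR5A2. They were taken by symbol from the 60624 gene identifiers listed in each library, and all 10 were present. No measured value set the choice, but it was made with earlier results of these data known.

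The RNA sequencing data comprised 14 libraries in 9 groups, all derived from MEL1, a human embryonic stem cell line that, in the study, carries a GFP reporter at the insulin locus (MEL1 INS GFP/W). Every group therefore comes from 1 line. Undifferentiated cells (hPSC), definitive endoderm (DE), stepwise differentiated pancreatic progenitors (PP2) and β-like cells differentiated from hPSC without an expansion step (SC-β) had 1 library each, all in the batch labelled 1. Expandable pancreatic progenitors (ePPs) at passage 9 (ePP-P9) and passage 21 (ePP-P21), and β-like cells derived from ePPs (ePP-β), had 2 libraries each in batch 2. Pancreatic progenitors treated for 7 days with the solvent (DMSO) or with 1 μM I-BET151 had 2 libraries each in batch 3. I-BET151 inhibits the BET bromodomain proteins, which bind acetylated histones. By the methods of the study, ePPs were grown on feeder cells in a medium with EGF, bFGF, a TGFβ inhibitor and the same dose of I-BET151. Both ePP groups thus carried the BET inhibitor, and the stem cells were kept on mouse CF1 feeder cells.

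Pancreatic progenitors arise from the gut endoderm, where PDX1 switches on in the region that forms the pancreas. Within it, NKX6-1 and PTF1A come to mark alternative fates, NKX6-1 the trunk that gives rise to ducts and endocrine cells and PTF1A the tips that give rise to acinar cells. SOX9 maintains the progenitor pool, and progenitors that express PDX1 together with NKX6-1 are the usual starting point for making β cells in culture.

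Promoter sequences are shown for NKX6-1, MNX1 and HHEX, the genes of the 10 whose RefSeq start equalled the annotated 5′ end of the gene. They are the 250 bases before the transcription start in RefSeq (GRCh38.p14), 5′ to 3′ on the strand of the gene, with each CCAAT box in capitals, read as CCAAT or, on the other strand, as ATTGG. The entries matched 3 of the 10 genes. PDX1, NKX6-2, SOX9, PTF1A, GLIS3, PROX1 and NR5A2 are not shown.
NKX6-1, chr4:84499293-84499542, minus strand: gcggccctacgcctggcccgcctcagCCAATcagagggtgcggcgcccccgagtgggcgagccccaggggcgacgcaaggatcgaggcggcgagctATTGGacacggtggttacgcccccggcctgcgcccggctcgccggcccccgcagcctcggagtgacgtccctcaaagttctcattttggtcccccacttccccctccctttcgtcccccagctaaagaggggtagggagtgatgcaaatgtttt
MNX1, chr7:157010664-157010913, minus strand: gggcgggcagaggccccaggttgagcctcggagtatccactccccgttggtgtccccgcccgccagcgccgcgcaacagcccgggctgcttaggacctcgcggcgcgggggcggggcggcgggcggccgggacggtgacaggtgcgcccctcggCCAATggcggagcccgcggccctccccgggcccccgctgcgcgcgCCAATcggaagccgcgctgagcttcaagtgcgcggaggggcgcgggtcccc
HHEX, chr10:92689705-92689954, plus strand: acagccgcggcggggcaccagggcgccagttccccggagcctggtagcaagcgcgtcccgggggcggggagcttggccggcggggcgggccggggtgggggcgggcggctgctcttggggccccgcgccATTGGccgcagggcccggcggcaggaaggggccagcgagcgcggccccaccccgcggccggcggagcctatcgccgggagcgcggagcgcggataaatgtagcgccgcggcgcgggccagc

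All 3 stretches were rich in G and C and in CpG dinucleotides. The share of G and C was 67.6% for NKX6-1, 78.8% for MNX1 and 81.2% for HHEX, beside a median of 58% over 35116 RefSeq promoter stretches of the same length. NKX6-1 held 23 CpG dinucleotides, MNX1 36 and HHEX 38, against a median of 11. Each held at least 1 CCAAT box, a sequence found in 32% of all stretches. In NKX6-1 the matches ended 220 and 150 bases before the start, in MNX1 92 and 47 bases, and in HHEX 117 bases. The GC box GGGCGG, searched on both strands and found in 42.6% of stretches, occurred at 5 places in MNX1 and 4 in HHEX, some of them overlapping, and at 0 in NKX6-1. TATAAA (10.7% of stretches), the FOXA core TGTTTAC (2.98%), the GATA core AGATAA (9.17%), the RBPJ core TGGGAA (20.8%) and the homeodomain core TAATTA (4.35%) were at 0 in all 3 stretches on either strand. These letter matches describe the sequence and are not evidence of binding.

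Values are in TPM, which scales each gene by transcript length within its library, so that levels of different genes are comparable. Read depth is unknown, and between 14982 and 17578 genes per library reached 1 TPM. For hPSC, DE, PP2 and the β-like cells, 1 defining marker each is given, and each was high. POU5F1 was at 3401 TPM in hPSC, SOX17 at 1140 TPM in DE and PDX1 at 251 TPM in PP2. INS, in the β-like cells, was at 10916 and 17374 TPM (ePP-β) and 20658 TPM (SC-β). Some other markers were lower. NKX6-1, by which the study also defines PP2, was at 23.5 TPM there. Of 6 β cell genes, 5 reached 1 TPM in each ePP-β library. The exception was IAPP, with 0.463 TPM in replicate 1 and 0.538 TPM in replicate 2. The SC-β library had IAPP at 9.62 TPM. The PP2 and SC-β libraries also held mesenchymal markers, with a summed level of 1343 and 2373 TPM for 7 genes (COL3A1 at 779 and 1210 TPM), against 39.1 to 61.1 TPM in the 4 ePP libraries. The 6 endothelial markers summed to 50.4 TPM in PP2 (CDH5 at 22.3 TPM) and to at most 8.53 TPM in any other library. In these bulk samples, fewer cells of a type and less RNA per cell cannot be told apart.

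In GRCh38 (GENCODE release 44), PDX1 spans chr13:27920000-27926313, NKX6-1 chr4:84491985-84499292, NKX6-2 chr10:132783179-132786147, MNX1 chr7:156994051-157010663 and SOX9 chr17:72121020-72126416. PTF1A spans chr10:23192312-23194245, GLIS3 chr9:3824127-4348392, PROX1 chr1:213983181-214041510, HHEX chr10:92689955-92695647 and NR5A2 chr1:200027614-200177420. Whether counting used strand is not given in the sources used here, so reads of overlapping genes on opposite strands cannot be told apart. This touches NKX6-2 most. The end of INPP5A (chr10:132537787-132783480), which runs on the opposite strand, overlaps NKX6-2 and was at 13.9 to 24.9 TPM, above NKX6-2 in every library. MNX1-AS2, inside MNX1 on the other strand, reached 13.1 TPM and SOX9-AS1 3.77 TPM, both low beside their partners in the pancreatic libraries. PROX1 was overlapped on the other strand by PROX1-AS1, at most at 1.56 TPM (DMSO replicate 2). An unnamed long noncoding RNA on that strand reached 1.42 TPM in ePP-P9 replicate 2, where PROX1 was at 2.88 TPM.

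PDX1, a homeodomain factor required for the pancreas to form, was listed at 0 TPM in hPSC and DE and stood at 251 TPM in PP2. Passage 9 ePPs held 133 and 130 TPM, those of passage 21 124 and 134 TPM. ePP-β held 53.8 and 54.6 TPM and SC-β 58.5 TPM, while DMSO held 110 and 74.4 TPM and I-BET151 198 and 134 TPM. PP2 was thus highest, followed by I-BET151, ePP and DMSO, with both kinds of β-like cells lowest among pancreatic samples; the passages overlapped, and I-BET151 replicate 2 lay just above both.

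NKX6-1, a homeodomain repressor of trunk progenitors that mature β cells also express, was at 0.0649 TPM in hPSC, 1.06 TPM in DE and 23.5 TPM in PP2. Its ePP levels were 204 and 213 TPM at passage 9 and 176 and 210 TPM at passage 21. Among β-like cells, ePP-β held 143 and 138 TPM and SC-β 181 TPM. DMSO libraries held 103 and 51.5 TPM, and I-BET151 libraries 446 and 208 TPM. PP2 was the lowest of the pancreatic libraries, and the ranges of I-BET151, ePP-P9, ePP-P21 and SC-β, in that order from the top, each overlapped the next. Spinal cord also uses NKX6-1 and MNX1, but 6 markers of that tissue, such as OLIG2 and CHAT, summed to at most 1.87 TPM in any library.

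NKX6-2, the close relative of NKX6-1, was low throughout. It was at 2.24 TPM in hPSC, 1.01 TPM in DE and 1.29 TPM in PP2. The ePP libraries held 5.12 and 3.65 TPM at passage 9 and 2.64 and 1.66 TPM at passage 21. In the treated progenitors it was at 2.63 and 6.86 TPM with DMSO and at 1.43 and 2.66 TPM with I-BET151, ranges that overlapped. The β-like cells were lowest, with 0.230 and 0.220 TPM in ePP-β and 0.188 TPM in SC-β.

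MNX1, a homeodomain factor of the early dorsal pancreas that β cells keep, showed a different order. It was at 0.125 TPM in hPSC, 10.2 TPM in DE and 37.2 TPM in PP2. In ePPs it was at 78.0 and 84.3 TPM (passage 9) and 68.5 and 80.7 TPM (passage 21), overlapping the 73.4 and 69.7 TPM of DMSO. Higher levels were found in ePP-β (130 and 141 TPM), SC-β (206 TPM) and I-BET151 (256 and 117 TPM). The 2 I-BET151 libraries lay on either side of all the β-like libraries.

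SOX9, an HMG box factor of progenitors and later of ducts, was at 0.929 TPM in hPSC and 0.0197 TPM in DE. It reached 107 TPM in PP2, 133 and 136 TPM in passage 9 ePPs, 106 and 161 TPM in passage 21 ePPs, and 175 and 138 TPM in I-BET151. DMSO libraries held 82.2 and 88.8 TPM. It was lowest among the pancreatic libraries in the β-like cells, at 60.5 and 52.1 TPM in ePP-β and 32.5 TPM in SC-β. The PP2 level lay within the range of ePP-P21, so the order of these neighbours was not resolved.

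GLIS3, a zinc finger factor with roles in ducts and β cells, was highest in the ePP lineage. Passage 9 ePPs held 15.3 and 15.0 TPM, passage 21 ePPs 12.2 and 12.7 TPM and ePP-β 10.7 and 10.4 TPM. PP2 held 2.81 TPM and SC-β 0.452 TPM. Levels were 5.69 and 2.78 TPM with DMSO and 7.03 and 6.60 TPM with I-BET151, and at most 0.00545 TPM in hPSC and DE. The 6 libraries of batch 2 were thus above all the others.

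PROX1, a homeodomain factor of the early pancreas and liver, had its highest level in ePP-β, at 21.7 and 18.7 TPM. PP2 held 14.5 TPM and SC-β 7.09 TPM. The ePP libraries were low among pancreatic samples, with 3.01 and 2.88 TPM at passage 9 and 4.76 and 5.70 TPM at passage 21. DMSO (7.52 and 12.1 TPM) and I-BET151 (5.47 and 16.1 TPM) overlapped, as did I-BET151 and PP2, and hPSC and DE were at 0.215 and 0.0819 TPM.

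HHEX, a homeodomain factor of foregut endoderm, was the only one of the 10 genes above 100 TPM in DE, at 132 TPM. It was at 1.38 TPM in hPSC and reached 476 TPM in PP2, the highest value of any of the 10 genes in any library. In ePPs it was at 16.8 and 21.5 TPM (passage 9) and 32.7 and 47.0 TPM (passage 21). DMSO held 29.9 and 74.6 TPM, I-BET151 43.8 and 82.3 TPM, ePP-β 10.9 and 8.37 TPM and SC-β 15.5 TPM. In both treatment groups replicate 2 was higher, and the groups overlapped. Endothelial and liver cells also express HHEX and PROX1, and PP2 was the library with the most endothelial marker RNA. In the 4 ePP libraries the 6 endothelial markers summed to 0.406 to 0.778 TPM. The 7 liver markers summed to 4029 TPM in PP2 and to 252 to 299 TPM in the 4 ePP libraries. They summed to more than in PP2 in DMSO, ePP-β and SC-β (9779 to 30607 TPM). The part of endothelial and liver RNA in the PP2 level was not tested.

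PTF1A, a basic helix-loop-helix factor required for acinar cells, was found at more than 1 TPM in only 2 libraries, PP2 (21.05 TPM) and SC-β (61.0 TPM). It was listed at 0 in hPSC, DE and both ePP-P21 libraries and was at 0.0519 and 0.119 TPM in ePP-P9. The remaining values were 0.202 and 0.500 TPM in ePP-β, 0.0868 and 0.337 TPM in DMSO and 0.334 and 0.173 TPM in I-BET151. A listed 0 can be a value that was not estimated, since the 37 mitochondrially encoded genes also had 0 TPM in each of the 14 libraries. A list of 12 acinar genes had its highest summed levels in the same libraries, 113 TPM in PP2 and 97.3 TPM in SC-β, and summed to at most 63.8 TPM in any other. Within that list the SC-β library had CELA3A at 12.9 TPM and PRSS1 at 6.38 TPM, but RBPJL, the partner of PTF1A in acinar cells, at 0.231 TPM. In PP2 PRSS1 was at 60.2 TPM and CPB1 at 30.2 TPM. ePP-β, with PTF1A at most at 0.500 TPM, had CPA1 at 15.2 and 17.6 TPM and CELA3A at 6.24 and 7.18 TPM.

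NR5A2, a nuclear receptor of progenitors and acinar cells, was at 0.816 TPM in hPSC, 0.359 TPM in DE and 12.8 TPM in PP2. Its ePP levels were 19.2 and 19.9 TPM at passage 9 and 16.9 and 23.3 TPM at passage 21. DMSO held 9.91 and 16.6 TPM and I-BET151 8.80 and 19.3 TPM. ePP-β held 12.5 and 11.7 TPM but SC-β only 1.33 TPM. All neighbouring ranges from ePP-P21 down to PP2 overlapped, and SC-β was the one pancreatic library near the level of the undifferentiated cells.

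**Figure D1:**
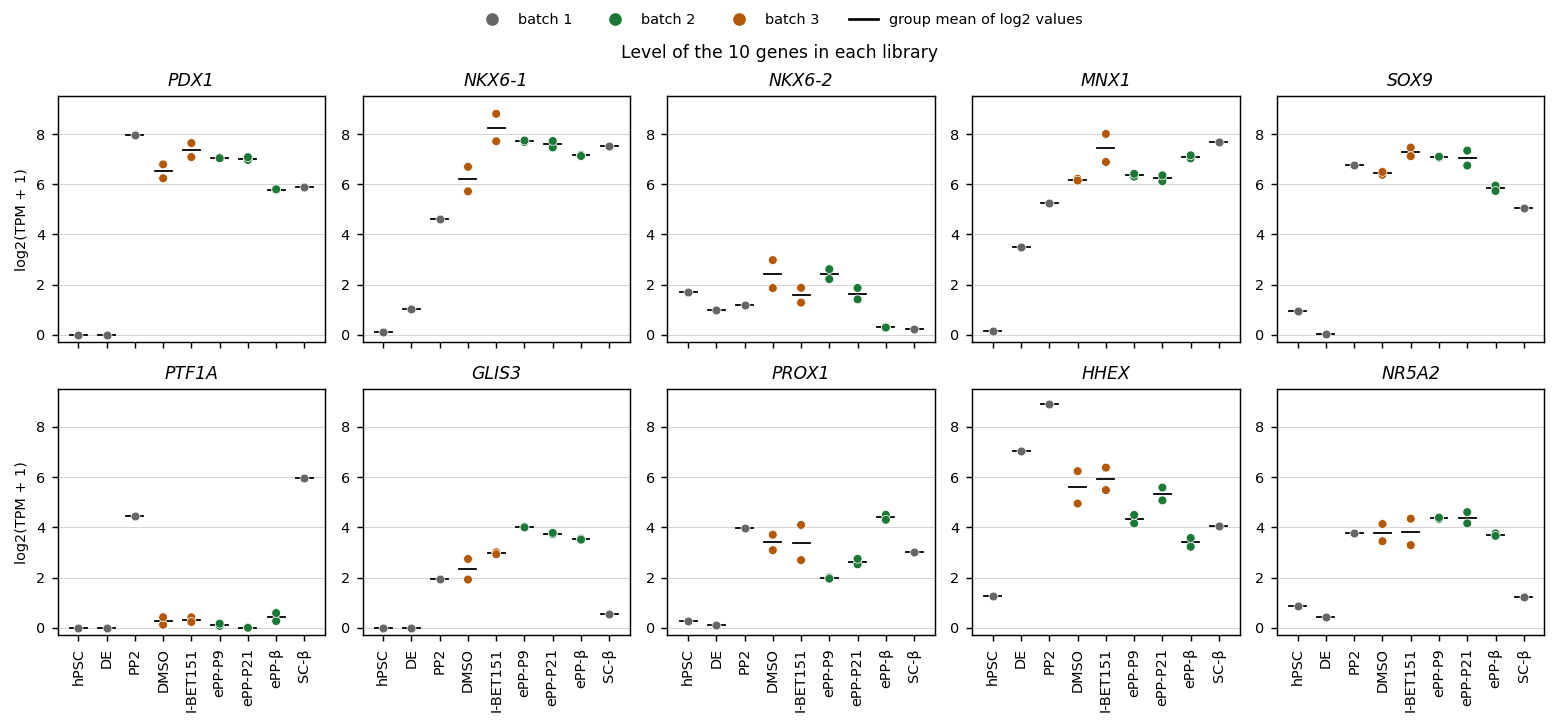
Level of each of the 10 genes as log2(TPM + 1) on the vertical axis, for the 9 groups on the horizontal axis; points are libraries coloured by labelled batch and the black line is the mean of a group's log2 values. PTF1A lies near 0 in all libraries but PP2 (21.05 TPM) and SC-β (61.0 TPM), HHEX is highest in PP2 (476 TPM), and NKX6-1 is higher in ePP (176 to 213 TPM) than in PP2 (23.5 TPM).

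The stages with 1 library were compared without a test, as differences on the log2(TPM + 1) scale, on which changes at low levels are understated. They have no replicate check, and comparisons across batches cannot be told apart from batch. From hPSC to DE, 2 of the 10 genes differed by more than 1 log2 unit upward, HHEX (5.80) and MNX1 (3.31), beside 8.18% of 20582 genes. From DE to PP2, 9 of 10 differed upward, beside 23.8% of genes, and 0 downward, beside 7.63%. The differences were 7.98 for PDX1, 6.72 for SOX9, 4.46 for PTF1A, 3.84 for PROX1, 3.57 for NKX6-1 and 3.34 for NR5A2, and NKX6-2 was the exception at 0.19. The median over the 10 genes was 3.45, against 0.31 over all genes.

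Expandable progenitors held a different mixture of the factors than PP2. Relative to PP2, ePPs were higher by more than 1 log2 unit for NKX6-1 (3.04), GLIS3 (1.95) and MNX1 (1.04), 3 of 10 beside 7.42% of genes. They were lower for PTF1A (−4.40), HHEX (−4.07) and PROX1 (−1.65), 3 of 10 beside 22.9%. PDX1 differed by −0.94, and SOX9 by 0.31 with overlapping ranges. DMSO-treated progenitors, set against the same PP2 library, were also higher in NKX6-1 (1.59) and NKX6-2 (1.22), 2 of 10 beside 9.06%, and lower in PTF1A (−4.19), HHEX (−3.30) and PDX1 (−1.47), 3 of 10 beside 25.6%. In the study, progenitors for the chemical screen were first passaged in the ePP medium without I-BET151. The part of such culture in the differences of DMSO from PP2 was not tested. PP2 also had the mesenchymal, endothelial and liver RNA given above, whose part in these differences was not tested.

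The makeup of the 10 factors gave the same picture as shares of their summed level. HHEX made up 50.2% and PDX1 26.6% of the 947 TPM in PP2, where NKX6-1 made up 2.48%. In the 4 ePP libraries, which summed to 544 to 676 TPM, NKX6-1 made up 31.0% to 34.0%, PDX1 19.8% to 22.8% and SOX9 19.5% to 23.8%. In ePP-β (436 to 443 TPM), NKX6-1 made up 32.2% and 31.8% and MNX1 29.3% and 32.3%. SC-β (563 TPM) had nearly the same NKX6-1 share, 32.1%, and a MNX1 share of 36.6%, but PTF1A made up 10.8%. The ratio of PDX1 to NKX6-1 was 10.7 in PP2, 1.07 and 1.44 in DMSO, 0.444 and 0.644 in I-BET151, 0.612 to 0.707 in ePPs, 0.377 and 0.394 in ePP-β and 0.324 in SC-β. NKX6-1 thus exceeded PDX1 in every I-BET151, ePP and β-like library and in neither DMSO library nor PP2.

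**Figure D2:**
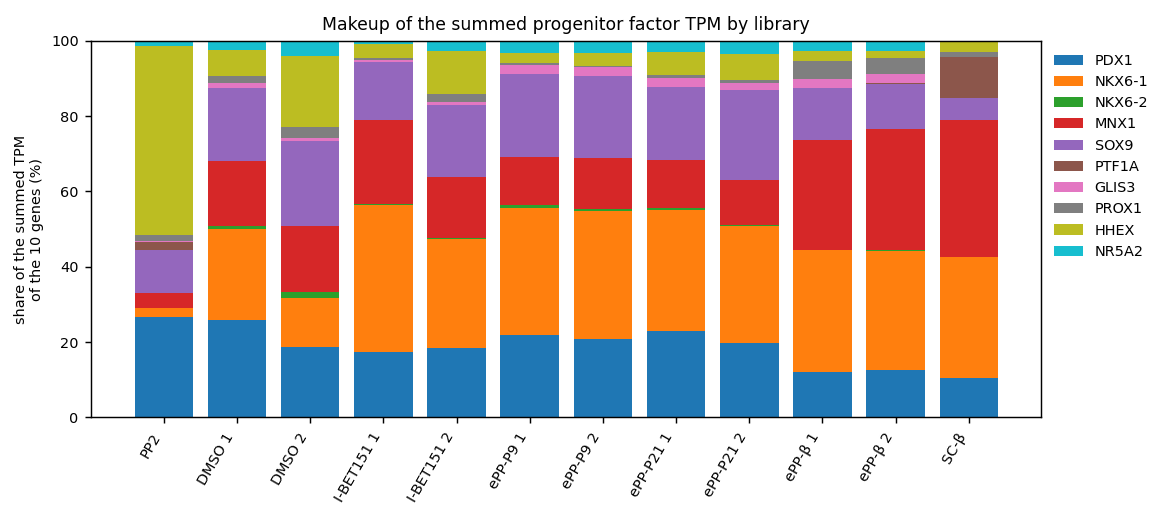
Share of each gene in the summed TPM of the 10 genes (vertical axis, percent) for the 12 pancreatic libraries (horizontal axis); each bar sums to 100% and each colour is 1 gene. HHEX takes 50.2% in PP2 and PTF1A 10.8% in SC-β, whereas NKX6-1 takes 31.0% to 34.0% in the ePP libraries.

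The batch 3 libraries addressed what differs when progenitors are treated with the BET inhibitor. NKX6-1 had the largest difference of the 10 genes, at 77.0 ± 36.1 TPM (SD, n = 2) with DMSO and 327 ± 168 TPM (SD, n = 2) with I-BET151. MNX1 was at 71.6 ± 2.59 and 186 ± 97.8 TPM, SOX9 at 85.5 ± 4.64 and 156 ± 26.3 TPM, and PDX1 at 92.0 ± 24.9 and 166 ± 45.3 TPM (SD, n = 2 in each group). The lower I-BET151 library of each of these genes was above the higher DMSO library. GLIS3 too did not overlap, so that 5 of the 9 tested genes had separate ranges upward, where 28.7% of 16687 tested genes did, and 0 had separate ranges downward, where 18% did.

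None of these differences passed the main test, which did not use the replicate number. In limma, 0 of 9 genes were called with adjusted p below 0.05 and a change of more than 1 log2 unit, where 0.21% of all tested genes (35) were called, 0.00599% higher and 0.204% lower. At an unadjusted p under 0.05 there were 3 of 9, NKX6-1, MNX1 and SOX9, beside 15.2% of genes. The log2 fold change was 2.05 ± 0.54 (SE) for NKX6-1 (limma adjusted p = 0.184), 1.26 ± 0.46 for MNX1 (0.293), 0.85 ± 0.31 for SOX9 (0.299) and 0.85 ± 0.38 for PDX1 (0.385). The others were 0.64 ± 0.39 for GLIS3, 0.34 ± 0.57 for HHEX and −0.84 ± 0.49 for NKX6-2, with adjusted p from 0.483 to 0.830. PROX1 had −0.0048 ± 0.56, and NR5A2 had 0.03 ± 0.49, which turned to −0.04 after quantile normalization and −0.05 after median centring. PTF1A, under 1 TPM in all 4 libraries, was not tested. The median over the 9 genes was 0.64, against 0.16 over all tested genes. NKX6-1 and MNX1 passed both thresholds when all 10 replicated libraries shared 1 estimate of the spread (limma adjusted p = 0.0160 and 0.0416). They also passed with the replicate number as a block (limma adjusted p = 0.00468 and 0.0359). In that fit PDX1 and SOX9 passed on the adjusted p alone (limma adjusted p = 0.0229 and 0.0334). The labels do not say that equal replicate numbers mark a shared culture. Without I-BET151 replicate 2 the log2 fold change was 2.60 for NKX6-1 and 1.82 for MNX1. Without I-BET151 replicate 1 it was 1.51 for NKX6-1 and 0.71 for MNX1. Leaving out a DMSO library gave 0.22 to 1.05 for GLIS3 and −1.40 to −0.28 for NKX6-2.

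Other listed genes were compared in the same way. Of 15 tested early pancreas factors outside the 10 genes (median 0.67), 0 were called. Separate ranges were found upward for 9, beside 28.7% of all tested genes, and downward for 2, beside 18%. HEY1, a Notch target, had a log2 fold change of 1.82 ± 0.36 (limma adjusted p = 0.116) and GATA4 one of 1.20 ± 0.43 (0.290), whereas RBPJ had −2.31 ± 0.31 (0.0700). The summed liver and gut markers were lower with I-BET151. The 7 liver markers summed to 11395 and 9779 TPM in DMSO and 1342 and 3246 TPM in I-BET151, and 1 of 7 fell, TTR, with a log2 fold change of −4.26 ± 0.30 (limma adjusted p = 0.0480). The 7 intestine and stomach markers summed to 1024 and 569 TPM and to 195 and 133 TPM, and 3 of 6 tested fell, GPA33, TFF1 and TFF2. Of 6 tested mesenchymal markers 1 fell, LUM. Of 7 tested acinar genes 0 were called and 5 had separate ranges downward, beside 18% of all tested genes. With a pseudocount of 0.1, or without a filter, 0 genes were called in this comparison. Ribosomal protein genes took a smaller share of the TPM in replicate 1 (20.3% with DMSO, 16.8% with I-BET151) than in replicate 2 (27.9% and 27.8%). The part of these in the values of the 10 genes was not tested.

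**Figure D3:**
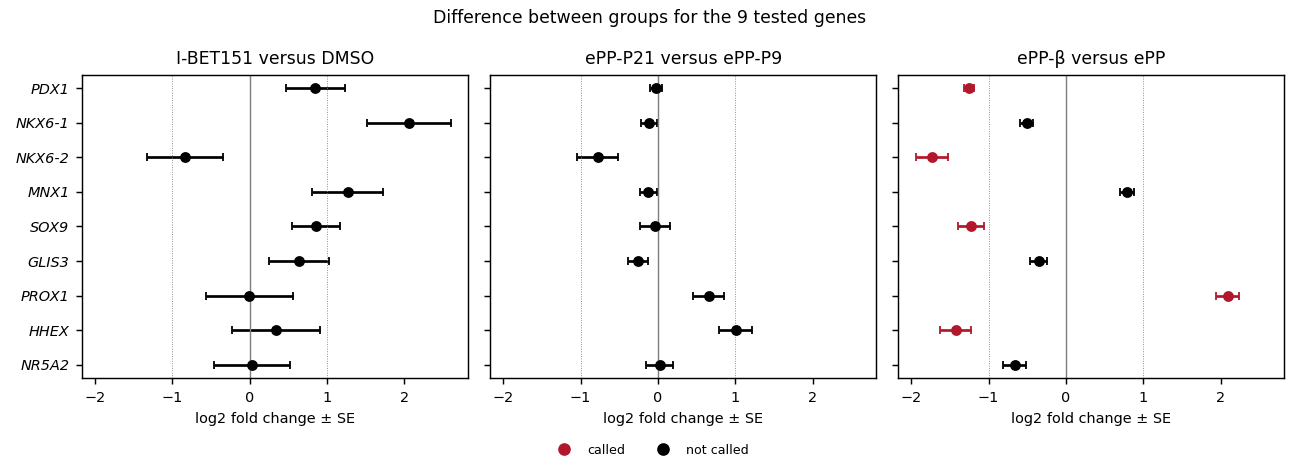
Log2 fold change on the log2(TPM + 1) scale (horizontal axis, points with SE bars) of the 9 tested genes (rows) in 3 comparisons, with dotted lines at a change of 1 in either direction; red marks genes called in limma. Under I-BET151 the bars are wide and 0 genes are called, and between passages 0 are called. In ePP-β 4 called genes lie to the left of the dotted lines, and PROX1 (2.09), also called, lies to their right.

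The passages addressed whether expression in ePPs differs after prolonged expansion. PDX1 averaged 132 ± 1.88 TPM at passage 9 and 129 ± 6.90 TPM at passage 21 (SD, n = 2), a log2 fold change of −0.03 ± 0.08 (SE; limma adjusted p = 0.871). NKX6-1 (−0.12 ± 0.10), MNX1 (−0.12 ± 0.11), SOX9 (−0.04 ± 0.19) and NR5A2 (0.02 ± 0.18, but −0.14 after quantile normalization and −0.18 after median centring) also did not pass the test. Those 5 genes had overlapping ranges. HHEX stood apart (19.2 ± 3.33 and 39.9 ± 10.1 TPM). Its log2 fold change of 1.00 ± 0.21 did not pass the test (limma adjusted p = 0.0797). PROX1 was at 2.95 ± 0.0934 and 5.23 ± 0.662 TPM, with 0.66 ± 0.20 (0.141), and NKX6-2 at 4.38 ± 1.04 and 2.15 ± 0.696 TPM, with −0.78 ± 0.27 (0.171).

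In limma 0 of 9 genes were called between passages, where 1.13% of 15822 tested genes were (1.07% higher, 0.0569% lower), and 3 of 9 (HHEX, PROX1 and NKX6-2) had an unadjusted p under 0.05, where 23% did. Separate ranges were found upward for HHEX and PROX1, 2 of 9 beside 41.3% of genes, and downward for NKX6-2 and GLIS3, 2 of 9 beside 13.1%, in all 4 of 9 beside 54.4%. The median was −0.04 over the 9 genes and 0.13 over all tested genes. Centring each library on its median moved these to −0.24 and −0.07. It gave −0.23 for PDX1, −0.32 for NKX6-1, −0.33 for MNX1, −0.46 for GLIS3 and −0.24 for SOX9. With it 7 of the 9 genes had an unadjusted p under 0.05 and 0 were called. HHEX passed both thresholds without ePP-P9 replicate 2 (log2 fold change 1.17, limma adjusted p = 0.0208). Of 15 tested early pancreas factors (median 0.14) 0 were called. ONECUT1, a factor upstream of the endocrine programme, came nearest, with 1.00 ± 0.17 (limma adjusted p = 0.0542). Among markers of other cell types 1 rose, FGB of the liver list (1.80 ± 0.21, limma adjusted p = 0.0371).

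The comparison of ePP-β with ePPs addressed how the progenitor factors differ once ePPs have been driven to β-like cells. It shares the ePP libraries with the comparison of passages. PROX1 rose. Its mean was 4.09 ± 1.38 TPM in ePPs (SD, n = 4) and 20.2 ± 2.08 TPM in ePP-β (SD, n = 2), and the log2 fold change was 2.09 ± 0.15 (SE; limma adjusted p = 0.000107). PDX1, SOX9, HHEX and NKX6-2 fell. For PDX1 the means were 130 ± 4.36 and 54.2 ± 0.599 TPM, and the log2 fold change was −1.25 ± 0.07 (limma adjusted p = 3.82e-05). SOX9 went from 134 ± 22.4 to 56.3 ± 5.94 TPM (−1.22 ± 0.17, limma adjusted p = 0.00151) and HHEX from 29.5 ± 13.4 to 9.64 ± 1.80 TPM (−1.43 ± 0.20, limma adjusted p = 0.00152). NKX6-2 fell from 3.27 ± 1.48 to 0.225 ± 0.00707 TPM (−1.73 ± 0.21, limma adjusted p = 0.000815), and with a pseudocount of 0.1 in place of 1 the log2 fold change was −3.26.

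Thus 5 of 9 tested genes were called, where 27.8% of 18076 tested genes were. In the upward direction 1 of 9 was called beside 17.9%, and in the downward direction 4 of 9 beside 9.86%. The other 4 genes had an adjusted p under 0.05 with a smaller change. MNX1 was higher in ePP-β by 0.79 ± 0.09 (limma adjusted p = 0.000762), and NKX6-1 (−0.51 ± 0.09), NR5A2 (−0.66 ± 0.15) and GLIS3 (−0.35 ± 0.11) were lower, with adjusted p from 0.00358 to 0.0318. All 9 genes therefore passed on the adjusted p alone, beside 57.4% of genes (62.2% at an unadjusted p under 0.05). All 9 had separate ranges, beside 63.8% of genes, 2 upward beside 32.2% and 7 downward beside 31.6%. The median was −0.66 over the 9 genes and −0.03 over all tested genes; quantile normalization moved them to −0.73 and −0.19. Over all genes 3237 were called higher and 1783 lower, a split that became 2592 and 2866 after quantile normalization and 2924 and 2377 after median centring, while the calls for the 9 genes stayed as given.

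Other early pancreas factors fell as well in ePP-β. Of 15 tested (median −0.85), 7 fell, among them FOXA1, GATA4, GATA6, HEY1, ONECUT1 and TCF7L2, and 1 rose. GATA6, an endoderm zinc finger factor, changed by −2.02 ± 0.09 (limma adjusted p = 1.98e-05) and GATA4, of the same family, by −1.93 ± 0.11 (limma adjusted p = 5.09e-05). FOXA2 (−0.07 ± 0.12, limma adjusted p = 0.626) was not called. Of 14 endocrine factors (median 5.75), 13 rose, with NEUROD1 changed by 8.23 ± 0.15 and NKX2-2 by 5.94 ± 0.17, and MAFA was the one not called. Of 6 tested acinar genes 4 rose, among them CELA3A, CPA1 and PRSS1. Of 6 tested ductal genes 3 fell (CA2 and SLC4A4 among them) and 1 rose (SPP1). All 7 liver markers rose, among them TTR, a gene that islet cells also express, and of 5 tested gut markers 4 rose and CDX2 fell. Of 5 tested mesenchymal markers TWIST1 rose and PDGFRB fell, and 0 endothelial and 0 spinal cord markers reached the level needed for testing. The part of a changed mixture of cells in these values was not tested.

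The differences of ePP-β from SC-β, which have no test, were −0.11 for PDX1, −0.36 for NKX6-1, −0.60 for MNX1, −0.64 for HHEX and 0.77 for SOX9. GLIS3 (2.99), NR5A2 (2.49) and PROX1 (1.39) were higher in ePP-β by more than 1 log2 unit, 3 of 10 beside 17.4% of genes. PTF1A (−5.53) was lower, 1 of 10 beside 15.6%. From PP2 to SC-β, 3 of 10 were higher, NKX6-1 (2.89), MNX1 (2.44) and PTF1A (1.49), beside 10.7% of genes. HHEX (−4.85), NR5A2 (−2.56), PDX1 (−2.08), SOX9 (−1.68) and GLIS3 (−1.39) were lower, 5 of 10 beside 19.8%. SC-β differed from ePP-β in batch and in mesenchymal RNA, which summed to 2373 TPM in SC-β and 46.5 and 36.7 TPM in ePP-β.

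**Figure D4:**
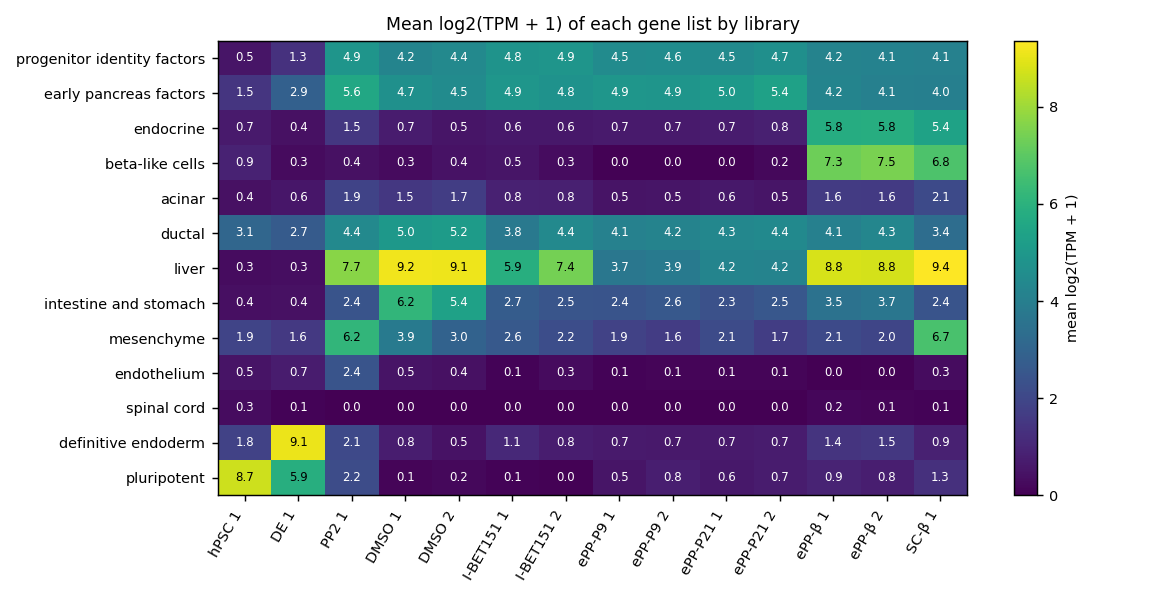
Mean log2(TPM + 1) of each gene list (rows; the colour scale and the printed values are this mean) in each of the 14 libraries (columns). The progenitor factors are low in hPSC (0.5) and DE (1.3) and between 4.1 and 4.9 in the pancreatic libraries, liver markers are lower in I-BET151 (5.9 and 7.4) than in DMSO (9.2 and 9.1), and mesenchymal markers are high in PP2 (6.2) and SC-β (6.7).

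The genes with the most similar pattern were sought among protein-coding genes, as Pearson's r of log2(TPM + 1) over the 9 group means. These points share libraries and batches, and low levels in hPSC and DE set much of their range. Among the 10 genes themselves, the most similar pair was PDX1 and SOX9 (r = 0.984), followed by GLIS3 and NR5A2 (0.943) and NKX6-1 and MNX1 (0.937), and the least similar pair was NKX6-2 and PTF1A (−0.535). Outside them, PDX1 was like FOXA1 (0.988), SOX9 like EPS8 (0.988), NR5A2 like LYPD6B (0.984), and GLIS3 like AK3 (0.987) and FH (0.986). PROX1 was most like CTSB (0.984) and GASK1B (0.963), NKX6-1 like ABCB10 (0.978) and SLC37A4 (0.975), and HHEX like KDM6B (0.975) and SPSB1 (0.959). MNX1 was most like BEX1 (0.957) and GSTA1 (0.956), NKX6-2 like ABHD17C (0.923) and SHCBP1 (0.906), and PTF1A, whose pattern rests on PP2 and SC-β, like TMEM204 and ANXA8 (both 0.996). GSTA1 and ANXA8 have near-identical copies in the genome, so their values are uncertain.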

How the data were processed

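Total RNA was isolated with a column kit, and NEBNext Ultra libraries were sequenced as paired ends. Per the methods of the study, the authors aligned reads to GRCh38 (hg38) with HISAT2 2.1.0, assembled transcripts with StringTie and deposited 1 TPM value per gene identifier; the annotation release and strand setting are not given in the sources used here. TPM holds no read depth, so no counting interval is given. Symbols and positions came from GENCODE release 44 (60370 of 60624 identifiers matched), and promoters from RefSeq.

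Groups were taken from the sample titles. Each comparison used only its own groups within 1 batch, with ePP as the mean of both passages' group means. Genes reaching 1 TPM in 2 or more libraries of a fit were transformed as log2(TPM + 1) and tested with limma 3.58.1 in R 4.3.3 (moderated statistics with an intensity trend, two-sided). A gene was called, and is said to have risen or fallen, at a Benjamini-Hochberg adjusted p under 0.05 over all tested genes with a log2 fold change beyond 1, the thresholds of the study. The count-based test of the study could not be applied to TPM. The labels do not say that replicates came from separate cultures, so p-values measure only the spread between these libraries, which may be technical. Separate ranges means that every library of a group lay above, or below, every library of the other. ± denotes the SD over libraries unless SE is stated.

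The named genes were the 10 factors, genes overlapping them, up to 4 genes (more where a count is spelled out) of each list of context and marker genes, and the 2 protein-coding genes of at least 10 TPM most similar to each factor. A few of these genes are not reported here. The 10 factors and the lists were chosen with earlier results of these data known. The code was tested on simulated data. Alternatives were a pseudocount of 0.1, other filters (none, or 5 TPM), quantile normalization, median centring, 1 fit of all 10 replicated libraries, the replicate number as a block, each library left out and, for the calls, the adjusted p alone. A group left with 1 library was assumed to vary like the others. The 4 groups with 1 library were described without a test.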

Additional observations from a re-analysis of the deposited data

How the results depend on the processing

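The 5 calls in ePP-β against ePP stayed at 5 under every alternative that kept all 9 genes testable and both thresholds, at 4 with a filter of 5 TPM, which leaves NKX6-2 untested, and became 9 on the adjusted p alone. The count under I-BET151 was 0 but 2 in the fit of all 10 replicated libraries and 2 with the replicate block (NKX6-1 and MNX1, limma adjusted p = 0.00468 and 0.0359), and 0 to 2 when a library was left out. Between passages it was 0, and 0 to 1 when a library was left out. Same-numbered libraries share only a number. Their deviations correlated across genes at r = 0.675 for DMSO and I-BET151, −0.00933 for the passages and −0.00401 to 0.0439 in the ePP-β fit. The replicate block moved the count over all genes from 35 to 2294 under I-BET151, from 178 to 66 between passages and from 5020 to 5032 in ePP-β. Over all genes under I-BET151 the count was 0 with a pseudocount of 0.1 or no filter, 138 after quantile normalization, 120 after median centring, 1673 in the fit of 10 libraries and 107 to 1034 when a library was left out. Between passages it was 0 without a filter or after median centring, 13 after quantile normalization, 1 in the fit of 10 libraries, 309 on the adjusted p alone and 0 to 478 when a library was left out, and in ePP-β it was 10381 on the adjusted p alone. NR5A2 changed sign under I-BET151 after quantile normalization (−0.037) and median centring (−0.051), and between passages (−0.14 and −0.18). When a library was left out, the log2 fold change under I-BET151 ranged from −0.31 to 0.98 for HHEX, −0.50 to 0.56 for NR5A2 and −0.71 to 0.70 for PROX1; between passages it ranged from −0.082 to 0.026 for PDX1, −0.25 to 0.0091 for NKX6-1, −0.34 to 0.26 for SOX9 and −0.20 to 0.25 for NR5A2. The median of all tested genes moved from 0.13 to −0.07 between passages after median centring, and from −0.03 to −0.19 in ePP-β after quantile normalization. The cause of these changes was not tested. Medians over the 10 genes without a test moved after quantile normalization from 0.45 to 0.79 (ePP against PP2), −0.15 to 0.33 (DMSO against PP2), −0.03 to −0.0073 (ePP-β against SC-β), −1.17 to −1.07 (SC-β against PP2), 3.45 to 2.95 (PP2 against DE) and 0 to 0.0022 (DE against hPSC). With a pseudocount of 0.1 they were 0.032 (ePP-β against SC-β), −1.91 (SC-β against PP2) and 4.80 (PP2 against DE). Leaving out a library gave 0.32 to 0.58 for ePP against PP2 and −0.35 to −0.13 for DMSO against PP2. The median r of the pairs with the most similar pattern was 0.984 over group means and 0.950 over the 14 libraries. Depth is unknown, so its limit could not be given.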
